A study of Mus musculus with 8 samples.

Results

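The 8 miRNAs described here are the 5p arms mmu-miR-99a-5p, mmu-miR-99b-5p, mmu-miR-100-5p, mmu-miR-125a-5p and mmu-miR-125b-5p and the 3p arms mmu-miR-125a-3p, mmu-miR-125b-1-3p and mmu-miR-125b-2-3p, written below without the mouse prefix. They were taken by name from a table of 1396 mature mouse miRNAs, and all 8 were present. The 8 small RNA libraries, 4 per group, were made from the left side of the spinal cord of C57BL/6 mice. In the bone cancer pain group, LL/2 mouse lung cancer cells had been transplanted into the marrow cavity of the left femur, and in the sham group saline had been injected at the same place. The sources used here do not say whether each library is 1 animal or a pool, so the p-values measure the spread between libraries, which may be technical.

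A miRNA is cut from a hairpin transcript and guides an Argonaute protein to messenger RNAs that pair with its seed, bases 2 to 8. The miR-99/100 and miR-125 hairpins are joined to a let-7 hairpin in conserved clusters; in Drosophila one transcript carries miR-100, let-7 and miR-125 together. miR-125 is the vertebrate relative of lin-4, the Caenorhabditis elegans miRNA that times larval development, and let-7 and miR-125 both bind the mRNA of the pluripotency factor Lin28 in mammals. miR-99 and miR-100 are known for binding the mRNA of the growth kinase mTOR, and miR-125b for acting at synapses of mouse hippocampal neurons.

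The sequences show which members can be told apart and which act through the same seed. They are RefSeq mature miRNAs on GRCm38.p6, given 5′ to 3′ with the seed in capitals, first the 5p arms with the miR-99/100 seed, then those with the miR-125 seed, then the 3p arms of the miR-125 hairpins.
miR-99a-5p: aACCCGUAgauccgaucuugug
miR-100-5p: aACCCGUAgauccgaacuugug
miR-99b-5p: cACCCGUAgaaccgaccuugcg
miR-125b-5p: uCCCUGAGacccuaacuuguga
miR-125a-5p: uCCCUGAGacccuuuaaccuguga
miR-351-5p: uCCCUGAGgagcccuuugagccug
miR-125a-3p: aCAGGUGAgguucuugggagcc
miR-125b-1-3p: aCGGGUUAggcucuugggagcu
miR-125b-2-3p: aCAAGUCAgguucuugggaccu

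miR-99a-5p and miR-100-5p differ at 1 of 22 bases, U16A counted from the 5′ end of miR-99a-5p. Reads of this pair are separable only if that base is read correctly, and the sources used here do not say how mismatched reads were assigned. miR-99b-5p differs from miR-99a-5p at 4 bases, A1C, U11A, U16C and U21C, of which none is in the seed. miR-125a-5p and miR-125b-5p share their first 13 and last 5 bases and differ in between. miR-351-5p, an X-linked miRNA outside these clusters, shares only the first 8 bases with miR-125b-5p and was the single other listed miRNA with either seed. In contrast to the 5p arms, the 3 miR-125 3p arms have 3 different seeds.

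The hairpins lie in 3 clusters, each with miR-99 or miR-100 first, let-7 next and miR-125 last, all on the plus strand (GENCODE M21, GRCm38). On chromosome 9, Mir100 (chr9:41531425-41531504) is followed by Mirlet7a-2 and, after a further 45114 bp, by Mir125b-1 (chr9:41581926-41582002), within the introns of the noncoding genes 3110039I08Rik and Gm49317, and Mir125b-1 also overlaps an exon of Gm28119. On chromosome 16, Mir99a (chr16:77598936-77599000), Mirlet7c-1 and Mir125b-2 (chr16:77646273-77646343) lie in introns of Mir99ahg and span 47408 bp, and Mir125b-2 also overlaps an exon of C130023A14Rik. On chromosome 17, Mir99b (chr17:17830188-17830257), Mirlet7e and Mir125a (chr17:17830812-17830879) span 692 bp within the protein-coding gene Spaca6. Mir99b and Mirlet7e are intronic there, while Mir125a overlaps an exon of an annotated Spaca6 transcript. Mir125b-1 and Mir125b-2 give the same miR-125b-5p, so its reads cannot be assigned to a chromosome, but their 3p arms differ at 5 of 22 bases and mark each locus.

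**Figure D1:**
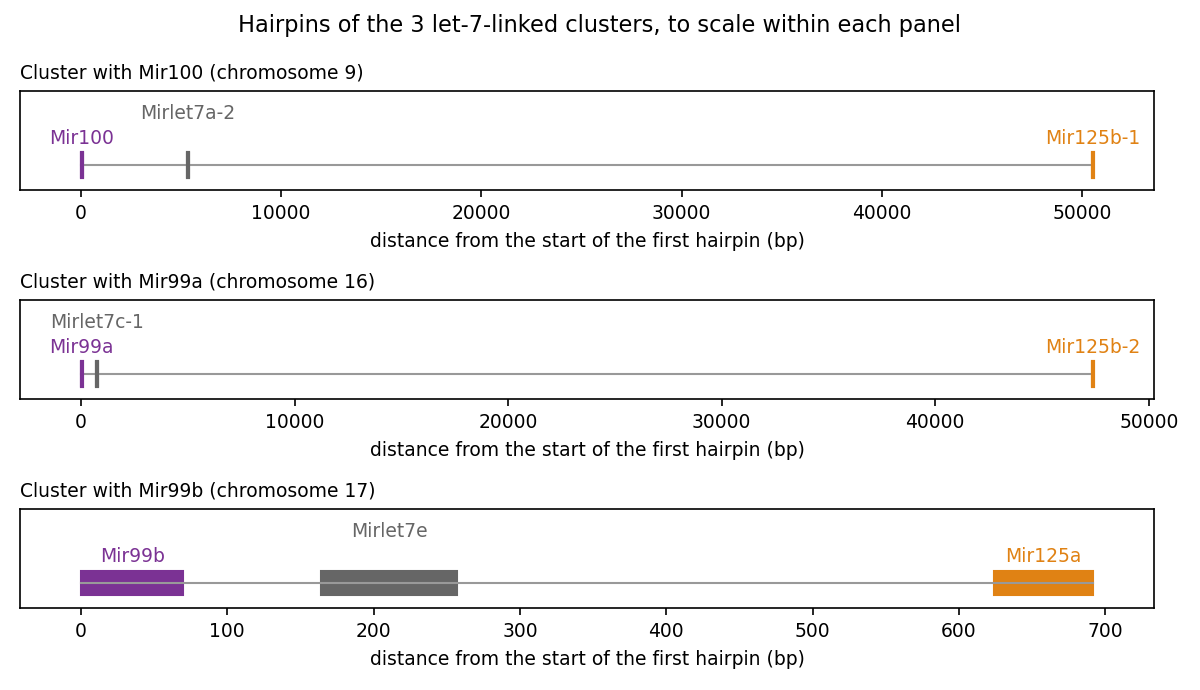
Position of the hairpins in each cluster, as distance in bp from the start of the first hairpin (x axis), with boxes or ticks for hairpins. The clusters with Mir100 and Mir99a span 50578 and 47408 bp and that with Mir99b spans 692 bp.

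The libraries held 5220739 to 9260169 reads of listed miRNAs out of totals of 7686762 to 13498956, and 3 reads correspond to 0.222 to 0.390 CPM. CPM is the number of reads of a miRNA scaled to the total of its library. The neural miRNAs miR-124-3p, miR-9-5p and miR-128-3p were above 0 in every library, as was miR-10b-5p, a Hox-cluster miRNA of caudal tissue. The summed level of 6 striated muscle miRNAs ran from 5377 CPM in sham 3 to 29294 CPM in sham 1, with 24006 CPM in sham 2 and 16944 CPM in bone cancer pain 4, and 5 of the 6 were above 0 in every library. That of 4 erythroid miRNAs ran from 670.0 CPM in sham 4 to 3415 CPM in sham 3. Spinal cord is a mixture of cells, so fewer cells of a type and less miRNA per cell cannot be told apart in any value here.

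The 8 members together made up 8.23% ± 0.704 (SD, n = 8) of the CPM of all listed miRNAs, from 6.78% in sham 1 to 8.94% in bone cancer pain 1. miR-100-5p, the most abundant member and 6th of all listed miRNAs, stood at 26683, 24838, 19799.7 and 24487 CPM in bone cancer pain libraries 1 to 4 and at 18325, 26607, 22499 and 27421 CPM in sham libraries 1 to 4. Both extremes were sham libraries, so the bone cancer pain values fell inside the sham range. miR-99a-5p, 9th of all, stood at 22197, 21034, 18639 and 19389 CPM in bone cancer pain and at 16628, 21495, 21022 and 18389 CPM in sham. Bone cancer pain 1 was highest and sham 1 lowest, and the groups overlapped.

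miR-99b-5p, whose hairpin has the closest neighbours, stood at 6887, 6606, 5569 and 6534 CPM in bone cancer pain and at 5543, 6131, 5766 and 6939 CPM in sham. The order of the libraries resembled that of miR-100-5p, with sham 4 and bone cancer pain 1 at the top and bone cancer pain 3 and sham 1 at the bottom. Across the 8 libraries miR-99a-5p, miR-99b-5p and miR-100-5p summed to between 40496 CPM in sham 1 and 55768 CPM in bone cancer pain 1.

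miR-125b-5p stood at 4892, 4697, 5823 and 4590.4 CPM in bone cancer pain and at 4236, 4659.7, 5188 and 4779 CPM in sham. miR-125a-5p stood at 1179.8, 1122, 1697 and 1235 CPM in bone cancer pain and at 1230.4, 1117, 1325 and 1234 CPM in sham. Both were highest in bone cancer pain 3, the library in which miR-99a-5p, miR-99b-5p and miR-100-5p were lowest among the bone cancer pain libraries. The summed level of the 3 neuronal miRNAs was also highest in bone cancer pain 3, at 122567 CPM against 96442 CPM in bone cancer pain 4, the lowest, and its part in these values was not tested.

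Of the 3p arms, which are the less abundant strands of these hairpins, miR-125b-1-3p stood at 235, 226, 271 and 303 CPM in bone cancer pain and at 202, 280.2, 212 and 425 CPM in sham. miR-125b-2-3p stood at 196, 222, 227 and 210.0 CPM in bone cancer pain and at 199, 216, 233 and 253 CPM in sham. miR-125a-3p, the rarest member, stood at 11.8, 12.7, 14.2 and 12.6 CPM in bone cancer pain and at 13.6, 15.7, 12.1 and 21.9 CPM in sham, which rested on 96 to 212 reads per library. All 3 were highest in sham 4, and the groups overlapped for each.

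**Figure D2:**
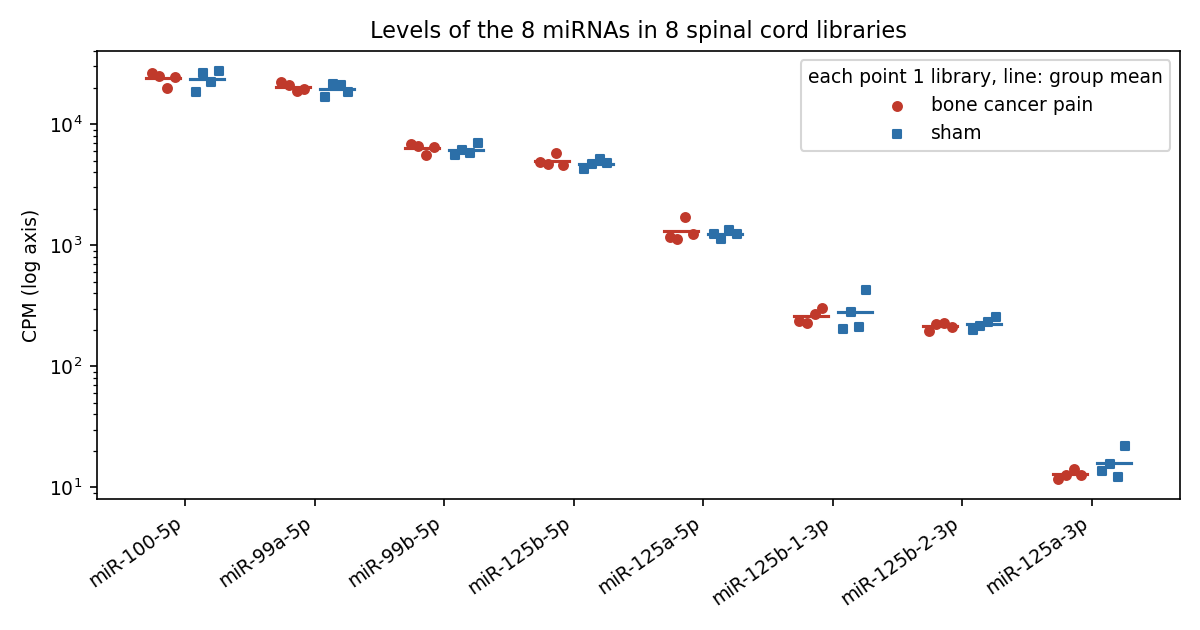
CPM of each member (log axis) in the 4 bone cancer pain libraries (circles) and the 4 sham libraries (squares), with lines at the group means. The members span from 11.8 CPM for miR-125a-3p to 27421 CPM for miR-100-5p, and the groups overlap for all 8.

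The order of the mean levels is described here by the log2 ratio of each neighbouring pair within a library, with no test, since the same 8 libraries set the order. miR-100-5p was above miR-99a-5p in 8 of 8 libraries, by a mean log2 ratio of 0.26 ± 0.16 (SD, n = 8). miR-99a-5p was above miR-99b-5p in 8 of 8, by 1.67 ± 0.15 on the log2 scale, and miR-125b-5p above miR-125a-5p in 8 of 8, by 1.94 ± 0.12. miR-99b-5p was above miR-125b-5p in 7 of 8 libraries, by 0.36 ± 0.21, the exception being bone cancer pain 3. miR-125b-1-3p was above miR-125b-2-3p in 7 of 8, by 0.26 ± 0.29, the exception being sham 3. The mean log2 ratio of this pair was smaller than its SD between libraries. miR-125a-5p lay above miR-125b-1-3p by 2.26 ± 0.39 and miR-125b-2-3p above miR-125a-3p by 3.96 ± 0.23 on the log2 scale, each in 8 of 8 libraries. All members are 22 to 24 bases long, so CPM were compared without a length correction, but how efficiently each sequence enters a library was not measured.

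Within the miR-99/100 seed group, miR-100-5p made up 47.6% ± 2.35, miR-99a-5p 39.9% ± 2.46 and miR-99b-5p 12.6% ± 0.771 of the summed CPM (SD, n = 8). The share of miR-100-5p was highest in sham 4, at 52.0%, where that of miR-99a-5p was lowest, at 34.9%. Within the miR-125 seed group, miR-125b-5p made up 78.9% ± 1.36, miR-125a-5p 20.5% ± 1.33 and miR-351-5p 0.539% ± 0.140 (SD, n = 8). The paralogue shares differed between the 2 groups by less than their SD, with miR-100-5p at 47.2% ± 1.55 in bone cancer pain and 48.0% ± 3.17 in sham, and miR-125b-5p at 79.0% ± 1.53 and 78.9% ± 1.42 (SD, n = 4 each).

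**Figure D3:**
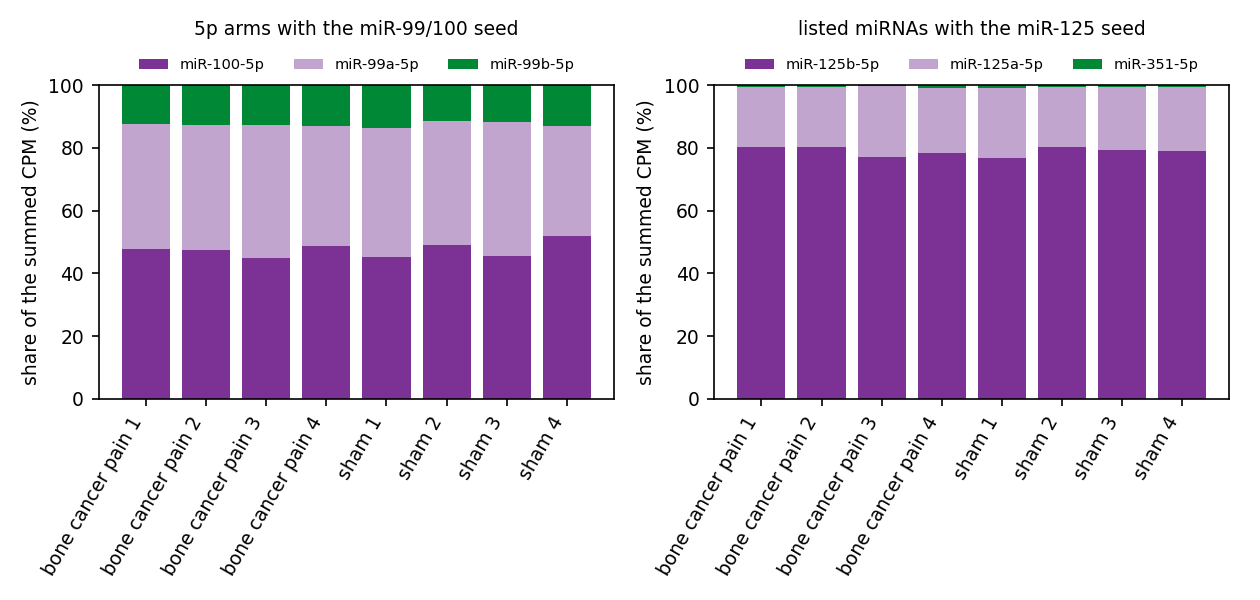
Share (%) of each miRNA in the summed CPM of its seed group, one bar per library. miR-100-5p and miR-99a-5p make up most of the first group in every library and miR-125b-5p makes up 76.9% to 80.3% of the second; miR-351-5p, under 1%, is barely visible.

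The comparison of bone cancer pain with sham asks whether tumour growth in the femur was accompanied by other levels of these miRNAs in the spinal cord on that side. No member passed. The mean level of miR-100-5p was 23952 ± 2931 CPM in bone cancer pain and 23713 ± 4188 CPM in sham (SD, n = 4 each), and its log2 fold change, bone cancer pain over sham, was 0.02 with a 95% interval from -0.29 to 0.34. For miR-99a-5p the means were 20315 ± 1605 and 19384 ± 2289.6 CPM, and the log2 fold change was 0.07 (-0.17 to 0.31). For miR-99b-5p they were 6399 ± 574 and 6095 ± 613 CPM, with the same 0.07 (-0.17 to 0.31). The differences of these 3 were smaller than the SD of either group.

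For miR-125b-5p the means were 5000.5 ± 562 CPM in bone cancer pain and 4716 ± 391.8 CPM in sham, and the log2 fold change was 0.08 (-0.16 to 0.33). For miR-125a-5p they were 1308 ± 263 and 1227 ± 85.3 CPM, with 0.08 (-0.24 to 0.39). Without bone cancer pain 3 that of miR-125a-5p was -0.06. For the 3p arms, which mark the loci, miR-125b-1-3p had means of 259 ± 35.4 and 280.0 ± 103 CPM, and its log2 fold change of -0.06 (-0.55 to 0.44) was 0.17 without sham 4 and -0.19 without sham 1. miR-125b-2-3p had means of 214 ± 13.7 and 225 ± 23.5 CPM and a log2 fold change of -0.07 (-0.34 to 0.20). miR-125a-3p, with means of 12.8 ± 1.03 and 15.8 ± 4.28 CPM, had the log2 fold change farthest from 0 among the members, -0.25 (-0.67 to 0.16), or -0.10 without sham 4.

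With limma over 605 tested miRNAs, 0% passed an adjusted p of 0.05, and 0 of the 8 members did, with adjusted p from 0.943 to 0.981. At an unadjusted p under 0.05 there were 0 members, against 4.63% of those tested (2.81% higher and 1.82% lower in bone cancer pain), and with limma the smallest unadjusted p among them was 0.199. On recovered reads, edgeR and DESeq2 also called 0 members after adjustment and 0 at an unadjusted p under 0.05, while over all 605 tested they called 0 after adjustment and 43 and 31 at an unadjusted p under 0.05; limma had 28. The groups did not overlap for 0 members, against 3.64% of all tested (1.98% higher and 1.65% lower). Of the 8, 5 had a log2 fold change above 0, against 48.3% of all tested, and their median was 0.05 against -0.01. All 8 members had a 95% interval that stayed inside a 2-fold change either way (91.7% of all tested did), and 7 of 8 had one inside 1.5-fold (61.0% of all tested), the exception being miR-125a-3p.

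**Figure D4:**
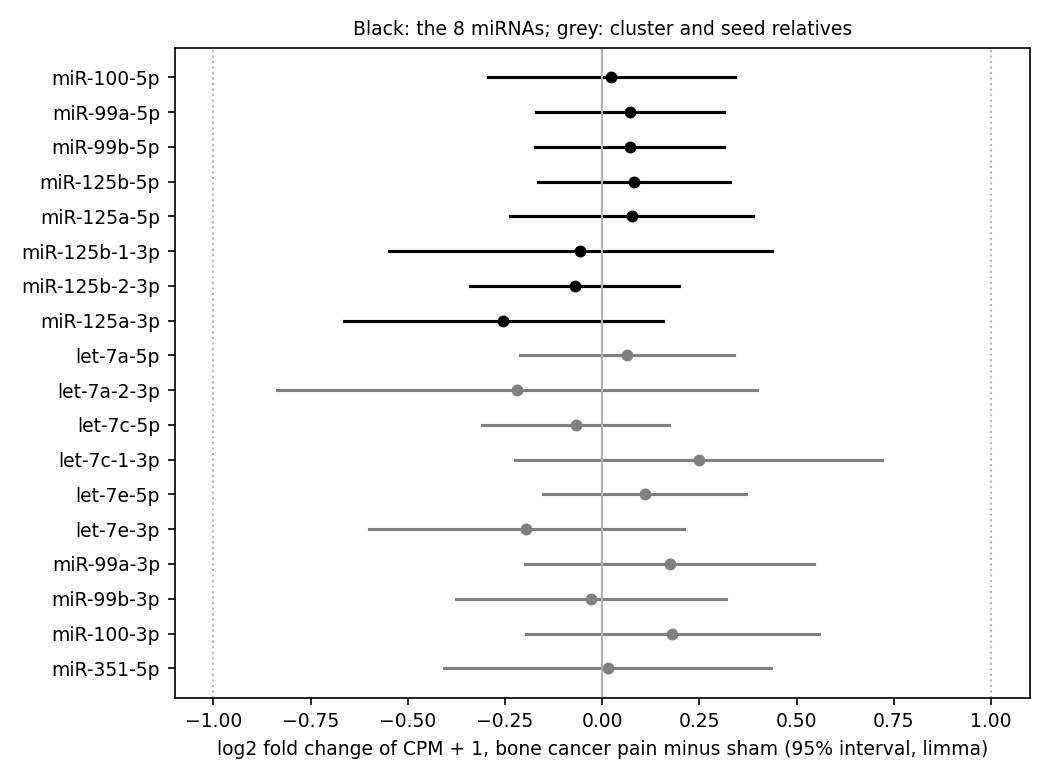
log2 fold change of CPM + 1 (bone cancer pain minus sham) with its 95% interval from limma, for the 8 members (black) and for let-7, opposite arm and seed relatives (grey); dotted lines mark 2-fold. Every interval crosses 0, and that of miR-125a-3p reaches lowest among the members, to -0.67.

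The spread between libraries of a group was below the median of miRNAs of like abundance for 4 of the 8 members and above it for the other 4. The within-group coefficient of variation was 9.50% for miR-99b-5p, 9.96% for miR-99a-5p and 9.98% for miR-125b-5p, but 15.2% for miR-100-5p and 15.4% for miR-125a-5p, against a median of 11.9% for the 69 tested miRNAs averaging 1000 CPM or more. Among the 3p arms it was 8.76% for miR-125b-2-3p, 21.7% for miR-125a-3p and 28.6% for miR-125b-1-3p, against a median of 17.7% for the 287 tested miRNAs between 10 and 1000 CPM.

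Sham 1 held the lowest level of miR-100-5p, miR-99a-5p, miR-99b-5p, miR-125b-5p and miR-125b-1-3p, and it was also the library with the highest striated muscle sum, 29294 CPM. Sham 2, with a muscle sum of 24006 CPM, held these members at 26607, 21495, 6131, 4659.7 and 280.2 CPM in that order. The sum of the oligodendrocyte miRNAs miR-219a-5p and miR-338-3p was lowest in sham 1, at 237 CPM, and highest in bone cancer pain 2, at 465 CPM. The part of muscle RNA or of cell mixture in these values was not tested. Without sham 1 the log2 fold change of miR-100-5p was -0.09. Without sham 1 and sham 2, it was -0.06 for miR-100-5p and -0.00 for miR-125b-5p, and the direction of the other 6 members stayed as above.

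The other arms and the let-7 partners of the clusters were measured beside the members. miR-99b-3p stood at 158, 174, 176 and 197 CPM in bone cancer pain and at 162, 164, 161 and 242 CPM in sham, while miR-99a-3p and miR-100-3p lay between 1.43 and 3.90 CPM. Of these 3, 0 passed limma's adjusted p of 0.05, and their median log2 fold change was 0.17, against -0.01 for all tested. Of the 6 let-7 miRNAs of the clusters, 3 were higher and 3 lower in bone cancer pain, 0 passed, and the median was -0.00. The mean of let-7c-5p was 8143 ± 577 CPM in bone cancer pain and 8563 ± 971 CPM in sham, and that of let-7e-5p 1605 ± 180.5 and 1485 ± 124 CPM (SD, n = 4 each). let-7a-5p and let-7c-5p also come from hairpins elsewhere in the genome, so their level is not that of the cluster alone. For miR-351-5p the log2 fold change was 0.01, with an interval from -0.41 to 0.43. miR-10a-5p and miR-10b-5p, of a family related to miR-99/100 by sequence but with another seed, had log2 fold changes of 0.14 and -0.07, the latter 0.01 without bone cancer pain 4.

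Ratios within a library do not depend on scaling to its total, so they compare paralogues, arms and cluster mates directly. All 15 ratios were compared between the groups with a two-sided exact permutation test over 70 arrangements, whose smallest possible p is 0.0286. None passed: with the exact permutation test the smallest p was 0.229 and every adjusted p was 1.00. With that smallest possible p, a single ratio among the 15 could not pass after adjustment even with the groups fully apart. The adjusted p therefore decides nothing about a single ratio, while no unadjusted p reached the smallest possible value. The ratio of miR-100-5p to miR-99a-5p ran from 1.062 in bone cancer pain 3 to 1.49 in sham 4. That of miR-99a-5p to miR-99b-5p ran from 2.65 in sham 4 to 3.65 in sham 3, and that of miR-125b-5p to miR-125a-5p from 3.43 in bone cancer pain 3 to 4.19 in bone cancer pain 2. The mean log2 ratio differed between the groups by 0.0011 for miR-99a-5p to miR-99b-5p and by 0.0058 for miR-125b-5p to miR-125a-5p.

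The 2 miR-125b loci gave 3p arms at about equal level. miR-125b-1-3p, from chromosome 9, made up 54.5% ± 4.95 (SD, n = 8) of the summed 3p reads, from 47.6% in sham 3 to 62.7% in sham 4. The mean share was 54.6% ± 3.50 in bone cancer pain and 54.3% ± 6.69 in sham (n = 4 each). Both arms can differ in stability, so the share of the 3p arms is not that of the shared 5p arm.

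The arms of the 5 kinds of hairpin were unequal to very different degrees, though the labels do not settle how the libraries were made and capture of each arm was not measured. The median ratio of the 5p to the 3p arm over the 8 libraries was 12666 for miR-100, 6281 for miR-99a, 94.3 for miR-125a, 34.98 for miR-99b and 10.5 for miR-125b with its 3p arms summed. Per library, miR-100-3p rested on 16 to 34 reads and miR-99a-3p on 24 to 37, so the ratios of miR-100 and miR-99a are imprecise. miR-99a-5p and miR-99b-5p, from paralogous hairpins, were 3.20-fold apart in median, while their 3p arms lay in the opposite order, with miR-99b-3p at 179 ± 28.1 CPM and miR-99a-3p at 3.12 ± 0.599 CPM (SD, n = 8). The ratio of miR-125a-5p to miR-125a-3p ran from 56.5 in sham 4 to 119 in bone cancer pain 3, and its mean log2 ratio was 6.66 ± 0.18 in bone cancer pain and 6.31 ± 0.41 in sham (two-sided exact permutation test, p = 0.229).

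Sham 4 held the highest level of many arms. Of the 9 rarer 3p arms of the 3 clusters, let-7 included, 7 were highest in sham 4, the others being miR-100-3p, highest in bone cancer pain 4, and let-7c-1-3p, highest in bone cancer pain 3. Among the 5p arms, miR-100-5p, miR-99b-5p, let-7a-5p and let-7c-5p were also highest in sham 4. The 5p arms miR-99a-5p, miR-125a-5p, miR-125b-5p and let-7e-5p were highest in bone cancer pain libraries. The ratio of 5p to 3p was lowest in sham 4 for miR-99a, miR-99b, miR-125a and miR-125b. Tested arms were also paired where their names differ only in 5p or 3p, which gave 161 pairs. These leave out miR-125b-1-3p, miR-125b-2-3p, let-7a-2-3p and let-7c-1-3p, whose 5p arms carry another name. Across the 161 pairs, the rarer arm was highest in sham 4 for 41.6%, more than in any other library (0.621% to 21.1%). The ratio of the rarer to the more abundant arm was highest in sham 4 for 25.5% of the 161, against 17.4% in bone cancer pain 3 and 16.1% in bone cancer pain 4, and its median deviation in sham 4 was 0.05 on the log2 scale. Sham 4 had the fewest reads, and its part in these values was not tested. These counts were chosen after the values were seen.

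**Figure D5:**
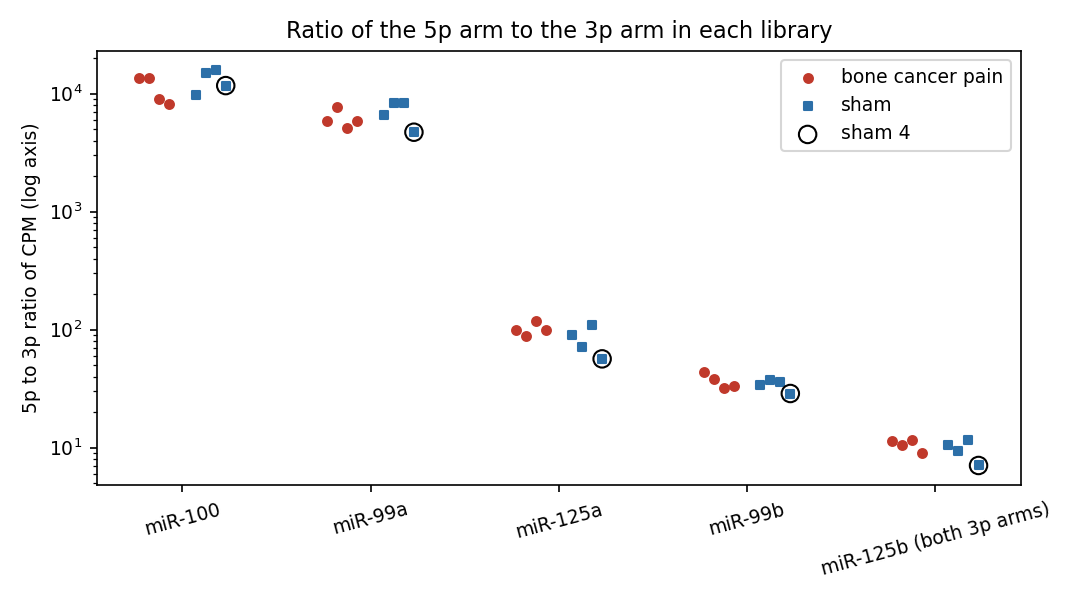
Ratio of the 5p to the 3p arm in CPM (log axis) in the 4 bone cancer pain libraries (circles) and the 4 sham libraries (squares), with sham 4 ringed. The ratios run from 7.04 for miR-125b in sham 4 to 15734 for miR-100 in sham 3, where miR-100-3p was at 1.43 CPM, and sham 4 is lowest in 4 of the 5 hairpin sets.

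The levels of cluster mates were compared across the libraries. Over 12 pairs of cluster mates and paralogues, 0 Pearson correlations of log2(CPM + 1) passed an adjusted p of 0.05 in a two-sided exact permutation test. miR-99b-5p and miR-125a-5p, whose hairpins lie within 692 bp, had r = -0.569 (exact permutation p = 0.114, adjusted p = 0.273) and Spearman's rho = -0.333 (exact p = 0.428), with r = -0.333 without bone cancer pain 3 and sham 1, the libraries farthest from the median. In the same cluster, let-7e-5p and miR-125a-5p had the opposite sign, r = 0.553 (exact permutation p = 0.174, adjusted p = 0.298) and rho = 0.667. Without bone cancer pain 4 and sham 2 that r was 0.743. For miR-99b-5p and let-7e-5p, r was -0.138 (exact permutation p = 0.743, adjusted p = 0.863). miR-99a-5p and miR-125b-2-3p had r = -0.0723 (exact permutation p = 0.863, adjusted p = 0.863) and rho = -0.310 (exact p = 0.462), or r = -0.464 without bone cancer pain 1 and sham 1. miR-100-5p and miR-125b-1-3p had r = 0.541 (exact permutation p = 0.168, adjusted p = 0.298) and rho = 0.619 (exact p = 0.115), or r = 0.621 without bone cancer pain 3 and sham 1. let-7c-5p and miR-125b-2-3p had r = 0.736 (exact permutation p = 0.0373, adjusted p = 0.224) and rho = 0.571 (exact p = 0.151), or r = 0.299 without sham 1 and sham 4, so this relation rested on those libraries. miR-100-5p and let-7a-2-3p, the latter at 1.5 to 5.07 CPM, had r = 0.643 (exact permutation p = 0.0874, adjusted p = 0.262) and rho = 0.802 (exact p = 0.0215, adjusted p = 0.258), or r = 0.937 without bone cancer pain 3 and sham 1.

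The paralogues miR-125a-5p and miR-125b-5p, on different chromosomes, had r = 0.799 (exact permutation p = 0.0334, adjusted p = 0.224) and rho = 0.5 (exact p = 0.216). Without bone cancer pain 3 and sham 2, the libraries farthest from the median, r was 0.316. It was 0.307 without bone cancer pain 3 alone and 0.804 without sham 2 alone, so the relation rested on bone cancer pain 3. miR-99a-5p and miR-100-5p had r = 0.662 (exact permutation p = 0.0766, adjusted p = 0.262) and rho = 0.476 (exact p = 0.243), or r = 0.192 without bone cancer pain 1 and sham 1. Leaving out 1 library at a time, r of this pair was lowest without sham 1, at 0.331, and highest without sham 4, at 0.899. It was 0.606 without bone cancer pain 1 alone. Within groups, with each group's mean taken away, r was 0.790 for miR-125a-5p and miR-125b-5p and 0.672 for miR-99a-5p and miR-100-5p.

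As a description with no test, the tested miRNAs whose log2(CPM + 1) followed each member most closely over the 8 libraries were named by the highest Pearson r among the other 604. All values share the depth and composition of the same libraries, so high values arise among so many candidates. miR-100-5p and miR-99b-5p were close to each other (r = 0.880, rho = 0.929), and miR-1306-5p was near both (r = 0.920 and 0.801, rho = 0.929 and 0.833). miR-210-3p was near miR-99a-5p (r = 0.886, rho = 0.922) and miR-100-5p (r = 0.870, rho = 0.707). miR-676-5p and miR-32-5p were near miR-99a-5p (r = 0.916 and 0.868, rho = 0.81 and 0.714), and miR-210-5p near miR-99b-5p (r = 0.832, rho = 0.881). miR-136-5p was among the nearest to both miR-125a-5p (r = 0.929, rho = 0.571) and miR-125b-5p (r = 0.865, rho = 0.619). The other nearest miRNAs were miR-135a-5p and miR-873a-5p for miR-125a-5p (r = 0.984 and 0.948, rho = 0.929 and 0.738), and miR-300-5p and miR-335-5p for miR-125b-5p (r = 0.863 and 0.851, rho = 0.905 and 0.714). Both miR-125a-5p and miR-125b-5p were highest in bone cancer pain 3, and r of these pairs without that library was not computed.

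Each 3p arm had other nearest miRNAs than its 5p arm. They were miR-181a-5p, miR-708-5p and miR-3085-3p for miR-125b-1-3p (r = 0.975, 0.965 and 0.951), miR-543-3p, miR-877-5p and miR-344d-3p for miR-125b-2-3p (r = 0.921, 0.919 and 0.907), and miR-185-3p, miR-330-3p and miR-501-3p for miR-125a-3p (r = 0.976, 0.965 and 0.95). No cluster mate was among the 3 nearest of any member.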

How the data were processed

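Per the labels' protocols, TRIzol was used for extraction; the sample descriptions name small RNA. The same protocols describe rRNA depletion, fragmentation and cDNA kits with bead size selection, steps usual for long RNA, and no small RNA adapter ligation. Which steps made these miRNA values is therefore unclear, and fragmentation or size selection could alter CPM and arm ratios. The submitters' processing notes name fastp, STAR, Bowtie, Salmon and mm10, with no version or role. The authors deposited CPM values, rounded to 2 decimals, of a library total larger than the listed miRNAs; 0 columns were unmapped.

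The value of 1 read was recovered from the steps between low CPM values; 100% of values above 0 were whole reads within 0.0051 CPM. In bone cancer pain 3 the step is close to 0.1 CPM, but only 16.6% of its values of at least 1 CPM are multiples of 0.1. Between libraries of the same group, chi-square over its degrees of freedom was 31.8 for bone cancer pain 1 and 2. For the other pairs it was 190 to 503, and all values lay far above sampling noise. Why bone cancer pain 1 and 2 were closer was not tested. The floor of 3 reads covers counting error only, since amplified reads are not independent molecules.

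The 605 miRNAs averaging 1 CPM or more (791 were left out; all 8 members passed) were tested as log2(CPM + 1) in R 4.3.3 using limma 3.58.1, two-sided, with a mean-variance trend, Benjamini-Hochberg adjustment over all 605 and a threshold of 0.05. The log2 fold change on this scale understates changes of miRNAs near 1 CPM. Recovered reads were tested with edgeR 4.0.16 and DESeq2 1.42.0 as alternatives. On simulated data for these 605 miRNAs with 200 changed, limma recovered 31.6% at 1.5-fold, 78.1% at 2-fold and 97.9% at 4-fold. These shares hold only for that many changed miRNAs. The adjustment is stricter when fewer have changed, and recovery in that case was not simulated. The members, lists, pairs and naming rule (all members and listed relatives, and the 3 nearest by Pearson r per member) were chosen with earlier results of these data known. A sign-flip test of the order of the members' levels had been planned and is not printed, since the same libraries set that order.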

Additional observations from a re-analysis of the deposited data

Results flagged for a closer look

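In the sham group, sham 4 lay far above the other 3 libraries for 3 arms: miR-99a-3p at 3.90 CPM, miR-99b-3p at 241.7 CPM and let-7e-3p at 31.74 CPM. The gap to the nearest library took up 0.936, 0.964 and 0.862 of the group's range, above Dixon's 95% critical value for 4 samples. miR-99a-3p was nearly as high in the other group, at 3.81 CPM in bone cancer pain 1 and 3.61 CPM in bone cancer pain 3. It rested on 24 to 37 reads per library. Of 70 groups of 4 examined, 3 were beyond that value, where chance gives about 1 in 20, and all 3 were in sham 4.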

How the results depend on the processing

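Under 21 alternatives, 0 tested miRNAs and 0 members passed the adjusted p, and 395 of the log2 fold changes kept their sign while 21 changed it; the cause was not tested. Without sham 1 and sham 2, the log2 fold change was -0.0611 for miR-100-5p, -0.0004 for miR-125b-5p and -0.0456 for let-7a-5p, and the log2 difference was -0.0137 for miR-125b-5p to miR-125a-5p and -0.038 for miR-125b-1-3p to miR-125b-2-3p. With quantile normalization it was -0.0025 for miR-100-5p and 0.0881 for let-7c-5p, and with array weights -0.0051 for miR-125a-5p, 0.0403 for miR-99b-3p and -0.0256 for miR-351-5p. The mean log2 ratio was 0.3535 for miR-99b-5p to miR-125b-5p and 0.2804 for miR-125b-1-3p to miR-125b-2-3p without sham 1 and sham 2.

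Leaving out 1 library at a time, the log2 fold change ran from -0.0941 to 0.1125 for miR-100-5p, -0.0557 to 0.1433 for miR-125a-5p, -0.1906 to 0.1659 for miR-125b-1-3p, -0.0836 to 0.1138 for miR-99b-3p, -0.0161 to 0.1402 for let-7a-5p, -0.1159 to 0.1452 for miR-351-5p and -0.1344 to 0.0145 for miR-10b-5p. The log2 difference between groups ran from -0.0858 to 0.0676 for miR-99a-5p to miR-99b-5p, -0.1092 to 0.0503 for miR-100-5p to miR-99a-5p, -0.1213 to 0.0096 for miR-100-5p to miR-99b-5p, -0.0469 to 0.0622 for miR-125b-5p to miR-125a-5p and -0.1159 to 0.179 for miR-125b-1-3p to miR-125b-2-3p. It ran from -0.1423 to 0.0579 for miR-99b-5p to let-7e-5p, -0.0892 to 0.192 for miR-99b-5p to miR-125a-5p and -0.0669 to 0.1943 for miR-100-5p to miR-125b-1-3p. The log2 ratio of miR-125b-1-3p to miR-125b-2-3p ran from 0.191 to 0.3174.

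The correlation r of miR-99a-5p with let-7c-5p ran from -0.5298 to 0.4253 in the same way, with miR-125b-2-3p from -0.6523 to 0.2325 and with miR-125b-5p from -0.3152 to 0.7088. That of miR-99b-5p with let-7e-5p ran from -0.3468 to 0.0699 and that of miR-125b-5p with miR-100-5p from -0.8524 to 0.5099. For miR-99a-5p and let-7c-5p, r was 0.1256 in the main setting and 0.5113 with median-of-ratios scaling. By contrast, r of that pair was -0.3079 without the 2 libraries farthest from the median and -0.6356 without sham 1 and sham 2. For miR-99a-5p and miR-125b-2-3p it was 0.4043 with median-of-ratios scaling and 0.0135 within groups. It was 0.1719 for miR-99b-5p and let-7e-5p without the 2 farthest libraries, -0.2351 for miR-125b-5p and miR-99a-5p without sham 1 and sham 2, and 0.0084 for miR-125b-5p and miR-100-5p with median-of-ratios scaling.

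Replicate numbers did not pair the libraries, the correlation of same-numbered deviations being -0.313 to -0.0111. With the replicate block limma called 0 miRNAs after adjustment and 21 at an unadjusted p under 0.05, against 28 without it, and the log2 fold change of miR-125a-3p stayed -0.2545.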
